A study of Homo sapiens with 24 samples.

Results

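The genes described here are 9 components of interferon signalling: the receptor subunits IFNAR1 and IFNAR2, the Janus kinases JAK1, JAK2 and TYK2, the signal transducer STAT2, and the interferon regulatory factors IRF9, IRF1 and IRF7. They were taken by gene name from the count table, in which they are 9 of 58721 genes, and each was followed over all 24 libraries. The libraries are 3′ RNA-seq of a pair of human bladder cancer lines. RT112 is of the luminal papillary (LumP) subtype, and SCaBER is a basal/squamous (Ba/Sq) line. Each line was transfected in a lipid reagent with siControl (number 2), siZBED2-1, siZBED2-2, siFOXA1 (number 1), siFOXA1 with siZBED2-1, or siFOXA1 with siZBED2-2, with 2 libraries per group and 12 groups. FOXA1 is a forkhead factor of luminal urothelium and ZBED2 a zinc finger factor of basal cells. The last pair of groups is called the double knock-down. RT112 was grown in RPMI and SCaBER in DMEM, both with serum, and no interferon was stated to be added to any group. All cells, controls included, received an siRNA, and each line is a single cell line whose behaviour need not hold for other tumours of its subtype.

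In this pathway a type I interferon brings IFNAR1 and IFNAR2 together, and the kinases TYK2 and JAK1 bound to their tails phosphorylate STAT proteins. STAT2 and IRF9 are subunits of ISGF3, the complex that then binds interferon-stimulated response elements (ISRE) at antiviral genes such as ISG15, IFIT1 and OAS2. Interferon gamma acts through JAK1 and JAK2 on genes with gamma-activated sites (GAS), and one of these genes is IRF1, itself an activator of chemokine and antigen presentation genes. IRF7 amplifies the response by driving interferon genes.

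The promoters of the genes that the results below turn on are shown so that the sites this pathway is known to use can be looked for. The windows run from 250 bases before to 50 bases after a RefSeq start site on GRCh38.p14 and are written 5′ to 3′ on the strand of the gene. Capitals mark matches to GAS.

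STAT2 promoter, chr12:56360058-56360357, strand minus: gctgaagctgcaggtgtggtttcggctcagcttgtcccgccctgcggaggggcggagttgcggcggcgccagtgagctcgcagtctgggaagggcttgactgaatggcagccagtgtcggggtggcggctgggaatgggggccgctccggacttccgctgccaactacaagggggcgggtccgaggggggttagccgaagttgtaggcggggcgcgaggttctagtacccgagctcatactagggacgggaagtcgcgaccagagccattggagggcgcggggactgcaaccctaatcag
IRF9 promoter, chr14:24161015-24161314, strand plus: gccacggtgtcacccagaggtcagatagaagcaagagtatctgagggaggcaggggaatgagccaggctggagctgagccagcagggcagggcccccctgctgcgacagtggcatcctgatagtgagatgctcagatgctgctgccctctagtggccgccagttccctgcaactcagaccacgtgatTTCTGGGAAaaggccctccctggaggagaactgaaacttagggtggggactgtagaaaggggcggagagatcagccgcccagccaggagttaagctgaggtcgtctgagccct
IRF1 promoter, chr5:132490724-132491023, strand minus: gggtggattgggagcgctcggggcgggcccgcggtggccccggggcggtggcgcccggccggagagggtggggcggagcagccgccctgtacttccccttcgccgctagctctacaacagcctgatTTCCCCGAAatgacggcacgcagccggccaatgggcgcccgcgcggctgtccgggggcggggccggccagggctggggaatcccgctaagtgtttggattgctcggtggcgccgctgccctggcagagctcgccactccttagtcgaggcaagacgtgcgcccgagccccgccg
JAK1 promoter, chr1:65067697-65067996, strand minus: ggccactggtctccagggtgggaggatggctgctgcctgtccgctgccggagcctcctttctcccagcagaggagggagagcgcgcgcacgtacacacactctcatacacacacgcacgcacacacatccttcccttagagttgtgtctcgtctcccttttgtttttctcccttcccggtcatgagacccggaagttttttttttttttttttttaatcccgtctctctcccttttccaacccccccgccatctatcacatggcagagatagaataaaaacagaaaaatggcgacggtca

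The GAS letters TTCNNNGAA, which read as the same pattern on both strands, stood in the windows of IRF1 (first base at −124 from the start site) and IRF9 (−63), 2 of the 7 genes with an entry, and in 7.66% of 35116 promoters. The ISRE core GAAANNGAAA, searched on both strands, stood in 0 of the 7 and in 3.57% of all promoters. Of the forkhead cores, TGTTTAC stood in a window of IFNAR1 (3.42% of all promoters) and TATTTAC in a window of JAK2 (2.67%). No window of STAT2, TYK2 or JAK1 held any of these letters. The percentages count windows, while each of the 7 genes was counted over all its windows, so the shares are not like for like. JAK1, JAK2 and IFNAR1 have several windows, and a single JAK1 window is shown. A match of this kind describes the sequence and is not evidence of binding.

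Total counts ran from 4425404 to 6119210 per library, and a count of 0 allows up to 3 counts, worth 0.49 to 0.678 CPM (counts-per-million of the library). Knock-down was checked first. FOXA1 fell by 2.36 on the log2 scale with siFOXA1 in RT112 (SE 0.38, adjusted p 5.68e-05). It was scarce in SCaBER, with 20 and 28 counts under siControl and 4 and 6 under siFOXA1, which did not pass (adjusted p 0.272). With siZBED2-1 ZBED2 was lower in RT112 (log2 change −3.97, SE 0.93, adjusted p 0.00624) and likewise in SCaBER (−1.96, SE 0.47, adjusted p 0.00848). With siZBED2-2 it stood at 6.24 and 7.32 CPM in RT112 beside 16.9 and 22.2 under siControl, and at 8.84 and 16.0 in SCaBER beside 19.0 and 19.1, with no call in either line (adjusted p 0.903 and 0.844). In RT112 ZBED2 was also lower under siFOXA1, with 27 and 7 counts beside 101 and 92 (adjusted p 0.0325). In the double knock-down ZBED2 was lower than under siFOXA1 in SCaBER (−1.85, SE 0.38, adjusted p 0.0026). In RT112 it was not called so (−1.03, SE 0.75, adjusted p 0.573). FOXA1 was lower in the double knock-down than under siControl in RT112 (−2.07, SE 0.30) and in SCaBER (−4.19, SE 1.13). With siZBED2-1 alone in SCaBER FOXA1 held 14 and 1 counts, without a call (adjusted p 0.564). Keratins and other markers of the 2 subtypes separated the lines: the 10 basal/squamous markers summed to 536 to 1020 CPM in RT112 and 3390 to 5440 in SCaBER, and the 12 luminal markers to 2060 to 3460 and 904 to 1430, with KRT20, UPK1A and UPK3A at 0 throughout SCaBER. The 5 immune markers summed to at most 2.57 and 5.5 CPM. The 6 fibroblast and endothelial markers reached 58.9 CPM in RT112 and 14.0 in SCaBER. One measure of quality moved with the FOXA1 siRNA in RT112. Mitochondrial transcripts took 18.57 to 22.73% of counts in the 6 RT112 libraries with it and 8.215 to 17.78% in the 6 without it, while in SCaBER the ranges overlapped (9.295 to 12.93% and 9.55 to 11.98%). The part of this shift in the RT112 results below was not tested. Counts are relative to the library total. Since each library pools many cells, fewer copies per cell and fewer expressing cells cannot be told apart.

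**Figure D1:**
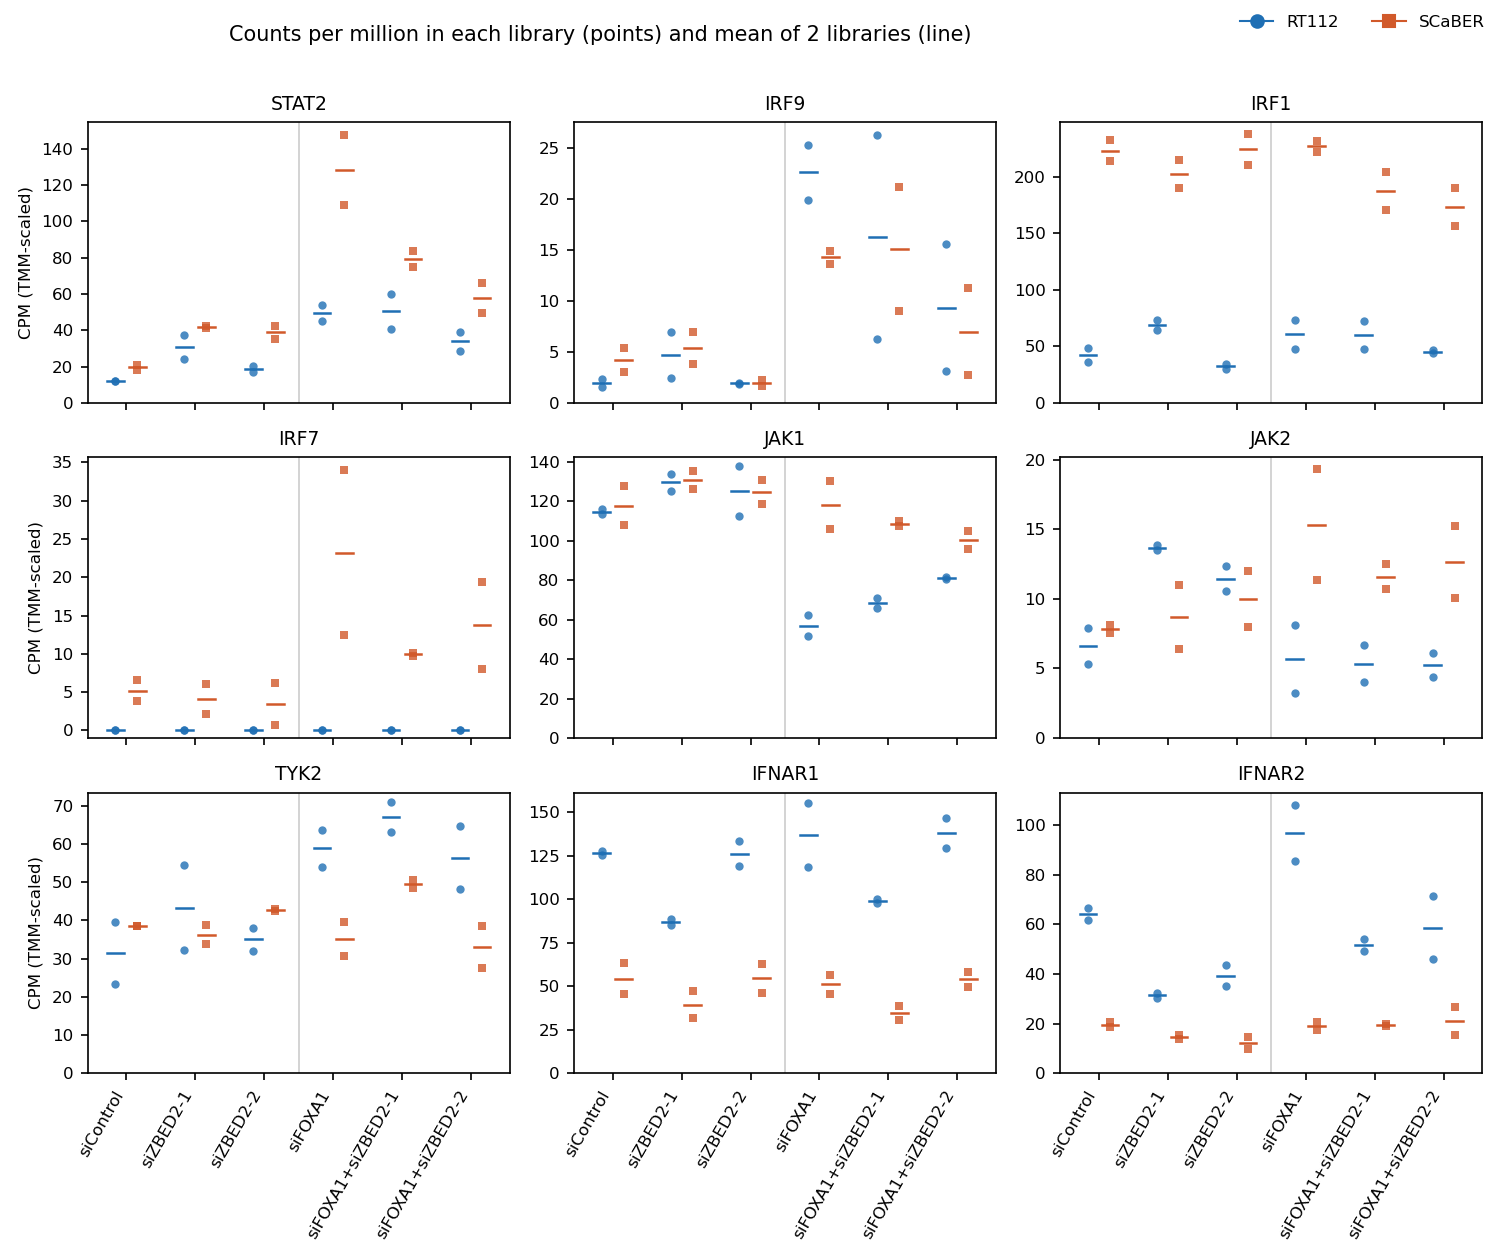
Counts-per-million (CPM, TMM-scaled, linear axis) of the 9 genes in all 24 libraries, by siRNA treatment. Points are libraries (circles RT112, squares SCaBER), short lines are means of 2 libraries, and the vertical line separates groups without and with the FOXA1 siRNA. STAT2 lies higher to the right of that line without overlap in SCaBER (49.7 to 148 CPM beside 18.1 to 42.6) and JAK1 lower without overlap in RT112 (51.6 to 81.5 beside 113 to 138), and IRF7 is at 0 throughout RT112.

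The starting levels of 4 of the 9 genes differed between the lines. Under siControl SCaBER held more IRF1 and IRF7 and less of both receptor subunits than RT112, while the kinases did not pass a test between the lines. Values are CPM scaled by TMM factors, and changes are log2 fold changes with their standard error (SE). A gene was called at a Benjamini-Hochberg adjusted p under 0.05 over all genes tested. Statements that the libraries of a group lie above or below their controls describe few libraries. The share of all genes was not computed for them unless it is printed. Of the 9 genes 4 were called between the lines (44.4%), against 33.6% of all 14823 genes tested, so the count is near the share of all genes. The lines also differed in medium, and its part was not tested.

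IRF1 (chromosome 5, 132481609 to 132490773) stood at 36.6 and 48.5 CPM in the siControl libraries of RT112 and at 232 and 214 in those of SCaBER. The groups were far apart, with a log2 difference of 2.37 (SE 0.20, adjusted p 1.6e-11). IRF7 (chromosome 11, 612555 to 615950) had 0 counts in all 12 RT112 libraries, and 20 and 33 counts under siControl in SCaBER. Its mean there, 5.17 CPM, was at least 8.56-fold higher than the floor of 3 counts per RT112 library. Reads from a 3′ end outside the annotation would not be counted, and whether IRF7 has one in RT112 was not tested. IRF7 therefore did not pass the filter on low counts in RT112, where 8 of the 9 genes were tested. In SCaBER all 9 were.

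IFNAR1 (chromosome 21, 33324395 to 33359864) stood at 128 and 125 CPM in RT112 and at 63.3 and 45.4 in SCaBER, a log2 difference of −1.23 (SE 0.21, adjusted p 1.23e-05). IFNAR2 (chromosome 21, 33229938 to 33265664) stood at 66.5 and 61.7 CPM in RT112 and 18.5 and 20.7 in SCaBER (−1.72, SE 0.27, adjusted p 5.48e-06). RefSeq places the readthrough gene IFNAR2-IL10RB over IFNAR2, so its reads may be shared, and the same holds for RAVER2 and LINC01359 beside JAK1 and for INSL6 beside JAK2. STAT2 was at 12.1 and 12.1 CPM in RT112 and 21.1 and 18.1 in SCaBER, which did not pass (0.69, SE 0.28, adjusted p 0.0547). It passed in 3 of 10 alternatives, which were DESeq2 (0.71, adjusted p 0.0315), RLE factors in place of TMM, and limma on log2(TPM + 1). IRF9 (1.06), TYK2 (0.29), JAK2 (0.24) and JAK1 (0.02) gave adjusted p of 0.32 to 0.939.

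With the FOXA1 siRNA the ISGF3 subunits STAT2 and IRF9 rose in both lines. In RT112, 4 of 8 tested genes were called, with STAT2, IRF9 and TYK2 higher and JAK1 lower, beside 23.3% of all 13264 genes. In SCaBER, 3 of 9 were called, STAT2, IRF9 and IRF7, all higher, beside 17.8% of all 13129 genes. Over the members tested, the median log2 change came to 0.55 for RT112 and 0.02 for SCaBER, against −0.01 and −0.02 over all genes tested. Neither receptor subunit nor IRF1 was called in either line. The study itself singled out STAT2 in these libraries, so its direction here is not independent evidence.

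STAT2 (chromosome 12, 56341597 to 56360107), the transactivating subunit of ISGF3, stood in RT112 at 12.1 and 12.1 CPM under siControl and at 54.0 and 45.1 under siFOXA1. Both siFOXA1 libraries lay above both controls, and the means were 4.1-fold apart (log2 change 2.03, SE 0.31, adjusted p 2.32e-05). In SCaBER the values were 21.1 and 18.1 CPM under siControl and 109 and 148 under siFOXA1, again without overlap, a 6.54-fold difference of means (2.71, SE 0.22, adjusted p 2.26e-11). The response did not pass a test of difference between the lines (0.68 higher in SCaBER, SE 0.37, adjusted p 0.397).

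IRF9 (chromosome 14, 24161265 to 24166565), the DNA-binding subunit of ISGF3, was scarce under siControl in RT112, with 7 and 13 counts or 1.54 and 2.38 CPM, and stood at 25.3 and 20.0 CPM under siFOXA1. This was an 11.6-fold difference of means (3.50, SE 0.74, adjusted p 9.6e-04). In SCaBER it stood at 3.02 and 5.38 CPM under siControl and 13.6 and 14.9 under siFOXA1 (1.76, SE 0.59, adjusted p 0.0326). Both siFOXA1 libraries were above both controls in each line. In SCaBER the call rested on small counts and was lost without siControl replicate 1 (1.41, adjusted p 0.212), siFOXA1 replicate 1 (1.83, adjusted p 0.0521) or siFOXA1 replicate 2 (1.70, adjusted p 0.0937). A test of IRF9 between the lines did not pass (−1.73, SE 1.02, adjusted p 0.445).

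IRF7, which drives interferon genes, stood in SCaBER at 3.77 and 6.57 CPM under siControl and at 12.4 and 33.96 under siFOXA1. Both siFOXA1 libraries were above both controls, but they differed widely from each other (2.16, SE 0.61, adjusted p 0.0103). Without siFOXA1 replicate 2 the change was 1.26 (adjusted p 0.274), and without siControl replicate 1 it was 1.81 (adjusted p 0.0763). In RT112 IRF7 stayed at 0 counts under siFOXA1, where 3 counts are worth 0.585 and 0.615 CPM before TMM scaling, so a lower level was not detectable.

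Of the kinases, JAK1 was lower and TYK2 higher in RT112, and none was called in SCaBER. JAK1 (chromosome 1, 64833229 to 65067746), which serves the receptors of all interferon types, stood in RT112 at 116 and 114 CPM under siControl and 51.6 and 62.2 under siFOXA1, lower in both libraries (−1.01, SE 0.18, adjusted p 1.29e-04). In SCaBER it stood at 128 and 108 CPM under siControl and 106 and 130 under siFOXA1, with overlapping groups (0.00, SE 0.16, adjusted p 0.99). JAK1 was the 1 gene of the 9 whose siFOXA1 response was called as different between the lines (1.02, SE 0.23, adjusted p 0.0102), beside 2.58% of all genes. That call was lost without RT112 siFOXA1 replicate 1 (0.88, adjusted p 0.0555), SCaBER siControl replicate 2 (0.90, adjusted p 0.0825) or SCaBER siFOXA1 replicate 2 (0.88, adjusted p 0.0794).

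TYK2 (chromosome 19, 10350533 to 10380572), the kinase on IFNAR1, stood in RT112 at 39.5 and 23.5 CPM under siControl and 54.0 and 63.7 under siFOXA1, above the controls in both libraries (0.91, SE 0.27, adjusted p 0.017). The call was lost without siControl replicate 2 (0.57, adjusted p 0.279) or siFOXA1 replicate 2 (0.79, adjusted p 0.0981). In SCaBER TYK2 stood at 38.6 and 38.7 CPM under siControl and 39.7 and 30.8 under siFOXA1 (−0.13, SE 0.23, adjusted p 0.779). Between the lines the TYK2 responses were not called as different (−1.04, SE 0.37, adjusted p 0.142). JAK2 (chromosome 9, 4984390 to 5129948), the kinase of the interferon gamma receptor, was at 7.90 and 5.31 CPM under siControl and 3.21 and 8.16 under siFOXA1 in RT112 (−0.22, SE 0.57, adjusted p 0.841). In SCaBER JAK2 was higher in both siFOXA1 libraries, at 19.3 and 11.3 CPM beside 8.10 and 7.57, without passing (0.97, SE 0.43, adjusted p 0.127). The JAK2 responses were not called as different between the lines either (1.18, SE 0.71, adjusted p 0.457).

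Among the receptor subunits and IRF1 no change under siFOXA1 passed. IFNAR2 in RT112 came nearest, with 108 and 85.4 CPM beside 66.5 and 61.7 under siControl (0.60, SE 0.23, adjusted p 0.0576), and it passed with the replicate number as a block (0.60, adjusted p 0.0419). In SCaBER IFNAR2 gave −0.03 (SE 0.33, adjusted p 0.968). IFNAR1 gave 0.11 in RT112 (SE 0.17) and −0.09 in SCaBER (SE 0.23), with adjusted p of 0.689 and 0.853. IRF1 gave 0.51 in RT112 (SE 0.25, adjusted p 0.158), where 1 of 2 siFOXA1 libraries lay above both controls. For SCaBER IRF1 the change was 0.02 (SE 0.14, adjusted p 0.944).

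**Figure D2:**
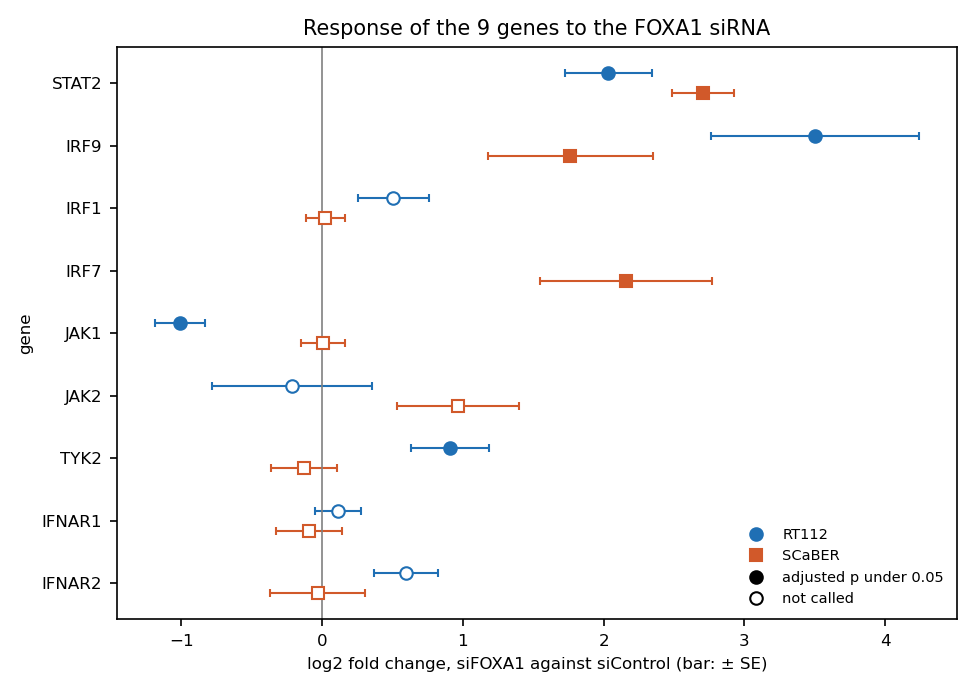
Log2 fold change of each gene under siFOXA1 against siControl (points, horizontal axis) with its standard error (bars), from 2 libraries per group. Circles are RT112 and squares SCaBER, and filled symbols have an adjusted p under 0.05. STAT2 and IRF9 are filled in both lines, JAK1 lies at −1.01 in RT112 and 0.00 in SCaBER, and IRF7 has a point in SCaBER alone.

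All 6 libraries with the FOXA1 siRNA were then set beside all 6 without it, whatever the ZBED2 siRNA. In RT112 JAK1 was the 1 of 8 tested genes without overlap, at 51.6 to 81.5 CPM with the FOXA1 siRNA (median 68.5) and 113 to 138 without it (median 121). Of all RT112 genes tested, 10.8% were without overlap, and the mitochondrial share of 18.57 to 22.73% against 8.215 to 17.78% splits the same libraries, and its part in the JAK1 result was not tested. STAT2 ran from 28.8 to 60.2 CPM with it and 12.1 to 37.2 without it, and the overlap came from siZBED2-1 replicate 1. Without that library 4 genes did not overlap, STAT2, IRF9, TYK2 and JAK1, and without siFOXA1+siZBED2-2 replicate 2 there were 2. Leaving out a library can only add such genes, and the share of all genes was not computed for fewer libraries, so these counts are a description. In SCaBER 2 of 9 genes were without overlap, beside 6.79% of all genes. JAK1 was not among them, at 96.0 to 130 CPM with the FOXA1 siRNA (median 107) and 108 to 135 without it (median 127), with 4 of 6 libraries below all 6 without it. STAT2 ran from 49.7 to 148 CPM (median 79.3) with the FOXA1 siRNA and from 18.1 to 42.6 (median 38.4) without it, and IRF7 from 8.05 to 33.96 CPM (median 11.3) and from 0.737 to 6.57 (median 4.91).

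With a ZBED2 siRNA alone STAT2 was called higher in 3 of 4 tests, and IFNAR2 lower in 1 of 4. STAT2 lay above both controls of its line in 8 of 8 libraries with a single ZBED2 siRNA, and IFNAR2 lay below both in 8 of 8. These were 2 of the 8 members tested in both lines, beside 3.2% of all 11763 such genes with 8 of 8 libraries on one side. In RT112, 3 of 8 genes were called with siZBED2-1 (STAT2 higher, IFNAR1 and IFNAR2 lower), beside 8.8% of all genes, and 0 of 8 with siZBED2-2 by edgeR and by DESeq2, beside 0.166%, where IFNAR2 was the 1 gene with an unadjusted p under 0.05. In SCaBER STAT2 was the 1 of 9 genes called with either, beside 4.65% and 0.625% of all genes.

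STAT2 stood in RT112 at 37.2 and 24.3 CPM with siZBED2-1 (1.35, SE 0.31, adjusted p 0.00527) and at 20.4 and 17.2 with siZBED2-2 (0.64, SE 0.31, adjusted p 0.872), beside 12.1 and 12.1 under siControl. Without siZBED2-1 replicate 1 the former was 1.00 (adjusted p 0.119). In SCaBER STAT2 stood at 41.3 and 42.1 CPM with siZBED2-1 (1.09, SE 0.22, adjusted p 0.00161) and at 42.6 and 35.5 with siZBED2-2 (0.99, SE 0.22, adjusted p 0.0203), beside 21.1 and 18.1. The siZBED2-2 call was kept without replicate 2 of that group, the library with little loss of ZBED2 (1.13, adjusted p 0.0185). It was lost without siZBED2-2 replicate 1 (0.86, adjusted p 0.256) or either siControl library (1.11 and 0.90, adjusted p 0.0508 and 0.231).

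The receptor subunits stood lower with siZBED2-1 in RT112. IFNAR2 was at 30.5 and 32.5 CPM beside 66.5 and 61.7 (−1.03, SE 0.24, adjusted p 0.00551), and at 35.2 and 43.5 with siZBED2-2 (−0.70, SE 0.23, adjusted p 0.48). IFNAR1 was at 88.5 and 85.4 CPM with siZBED2-1 beside 128 and 125 (−0.54, SE 0.17, adjusted p 0.042), a call lost when any of the 4 libraries was left out (−0.53 to −0.58, adjusted p 0.141 to 0.199). With siZBED2-2 IFNAR1 was at 133 and 119 CPM, around the controls (SE 0.17, adjusted p 1). In SCaBER IFNAR2 changed by −0.42 and −0.68 with the 2 siRNAs (SE 0.34 both, adjusted p 0.619 and 0.673), and IFNAR1 by −0.46 and 0.01 (SE 0.24 and 0.23, adjusted p 0.332 and 0.997).

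The other genes were not called with a ZBED2 siRNA alone. IRF1 in RT112 was at 73.4 and 64.0 CPM with siZBED2-1 and at 30.2 and 34.7 with siZBED2-2, on opposite sides of the controls at 36.6 and 48.5 (0.69 and −0.39, SE 0.25 and 0.26, adjusted p 0.0934 and 0.955). The former passed when only the groups compared were fitted (0.68, adjusted p 0.0388). JAK2 in RT112 was above both controls in 4 of 4 libraries (1.05 and 0.80, SE 0.55 both, adjusted p 0.288 and 0.962). These libraries share the same controls, and the share of all RT112 genes that do so was not computed. IRF9 in RT112 gave 1.24 with siZBED2-1 (SE 0.75, adjusted p 0.379) and −0.04 with siZBED2-2 (SE 0.80, adjusted p 1).

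STAT2 stayed above siControl in the double knock-downs of both lines. Against siControl, the mean of the double knock-downs called 4 of 8 genes in RT112, beside 19.9% of all genes, with STAT2 (1.77, SE 0.28, adjusted p 4.16e-05), IRF9 (2.62, SE 0.68, adjusted p 0.00662) and TYK2 (0.97, SE 0.25, adjusted p 0.00525) higher and JAK1 lower (−0.62, SE 0.15, adjusted p 0.00297). The IRF9 call was lost without siControl replicate 1 (2.36, adjusted p 0.0511) and the TYK2 call without siControl replicate 2 (0.63, adjusted p 0.204). In SCaBER it called STAT2 (1.79, SE 0.20, adjusted p 5.6e-08), 1 of 9 genes beside 11.5%. IRF9 there gave 1.29 (SE 0.53, adjusted p 0.122), and passed without siFOXA1+siZBED2-2 replicate 2 (1.63, adjusted p 0.0267), which held 13 counts beside 49 to 100 in the other 3.

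Set against siFOXA1 alone, the double knock-down lowered STAT2 in SCaBER and IFNAR2 in RT112. STAT2 in SCaBER stood at 83.5 and 75.2 CPM with siFOXA1+siZBED2-1 and at 49.7 and 66.1 with siFOXA1+siZBED2-2, all 4 below the siFOXA1 libraries at 109 and 148 (−0.92, SE 0.17, adjusted p 5.32e-04). It was the 1 of 9 genes called, beside 3.84% of all genes, and without siFOXA1 replicate 2 the change was −0.68 (adjusted p 0.11). In RT112 IFNAR2 was the 1 of 8 genes called, beside 1.96% of all genes. It stood at 54.3, 49.3, 46.0 and 71.4 CPM in the double knock-downs and at 108 and 85.4 under siFOXA1 (−0.81, SE 0.19, adjusted p 0.0239). The IFNAR2 call was lost without siFOXA1 replicate 1 (−0.63, adjusted p 0.177), siFOXA1 replicate 2 (−0.98, adjusted p 0.0705), siFOXA1+siZBED2-1 replicate 2 (−0.77, adjusted p 0.0523) or siFOXA1+siZBED2-2 replicate 1 (−0.68, adjusted p 0.0857). STAT2 in RT112 stood at 60.2 and 40.8 CPM with siFOXA1+siZBED2-1, on both sides of the siFOXA1 libraries at 54.0 and 45.1 (0.03, SE 0.28). With siFOXA1+siZBED2-2 it stood at 38.97 and 28.8 CPM, below both (−0.55, SE 0.29). The mean of the double knock-downs was not called (−0.26, SE 0.24, adjusted p 0.683).

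The interaction is the change from siFOXA1 alone to siFOXA1 with a ZBED2 siRNA, minus the change from siControl to a ZBED2 siRNA alone. It asks whether the effects of both siRNAs add up on the log2 scale. For STAT2 in SCaBER they did not. The single changes summed to 3.79 for siFOXA1 with siZBED2-1 and 3.69 for siFOXA1 with siZBED2-2, while the combined cells gave 2.01 (SE 0.22) and 1.56 (SE 0.22). The interaction was −1.96 (SE 0.26, adjusted p 2.2e-05), called in each of the 17 alternatives run, and STAT2 was the 1 of 9 genes called, beside 2.29% of all genes. In RT112 the sums were 3.38 and 2.67 and the combined changes 2.06 and 1.49 (SE 0.31 both). That interaction was −1.25 (SE 0.37, adjusted p 0.126) and 0 of 8 genes were called with edgeR, beside 0.611% of all genes. STAT2 was the 1 RT112 gene with an unadjusted p under 0.05, and it passed with the replicate number as a block (−1.24, adjusted p 0.0484). DESeq2 called 0.

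**Figure D3:**
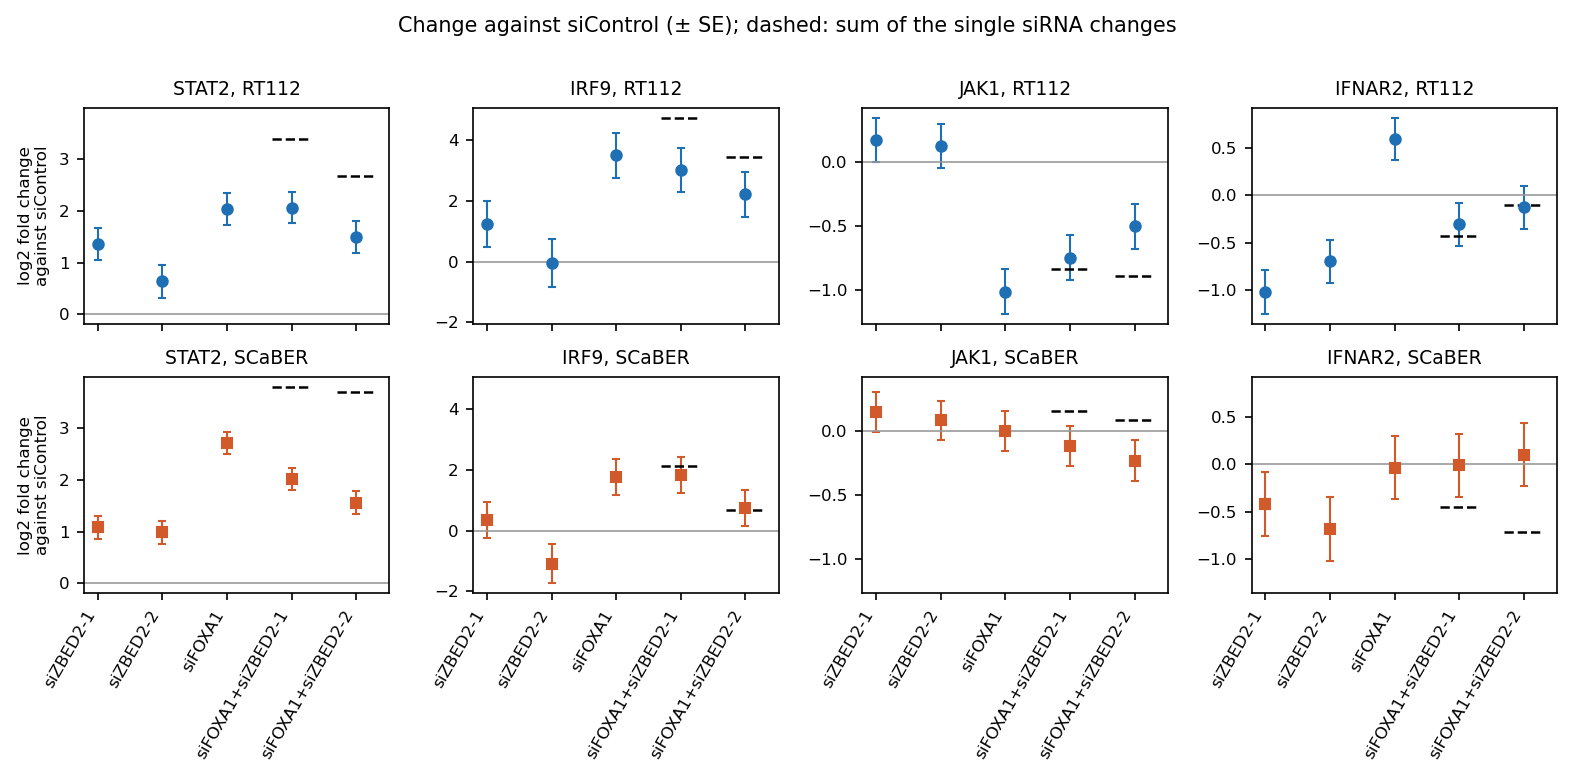
Log2 fold change against siControl (vertical axis, ± SE) of STAT2, IRF9, JAK1 and IFNAR2 for each siRNA and combination, in RT112 (top) and SCaBER (bottom), from 2 libraries per group. Dashed lines mark the sum of the corresponding single siRNA changes. For STAT2 the combined points (1.49 to 2.06) lie under the dashed lines (2.67 to 3.79) in both lines.

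Over the 12 libraries of a line, the members were compared with STAT2 by Pearson's r of log2 CPM, as a description of libraries that share treatments and depth. In RT112 IRF9 (0.902) and TYK2 (0.877) followed STAT2 and JAK1 ran against it (−0.754). In SCaBER the values were lower, with JAK2 at 0.678, IRF7 at 0.618 and IRF9 at 0.612, and JAK1 at −0.164. The 5 genes most like STAT2 were PANK2, TMED3, NKIRAS2, RRBP1 and CISD1 in RT112 (0.956 to 0.976) and TP53INP2, DCLRE1C, FNDC3B, CAP1 and DDX60L in SCaBER (0.954 to 0.972). Those most like IRF1 were AMPD3, RELA, SNX24, ZNF223 and RHOV in RT112 (0.877 to 0.946) and ANKRD20A5P, CTC1, TRAPPC2, CREB3 and CCDC28A in SCaBER (0.842 to 0.88). The lists of the lines had no gene in common.

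The rest of the pathway was read from lists of related genes, to be set under siFOXA1 beside the 23.3% of all genes called in RT112 and 17.8% in SCaBER. Of the 11 other receptors, JAKs and STATs, 4 of 8 tested were called in RT112, all higher (median 0.79), and 2 of 7 in SCaBER, both higher (median 0.43). STAT6, the mediator of interleukin 4 signals, was higher in both lines (0.73 and 0.59, SE 0.21 and 0.16, adjusted p 0.0108 and 0.00573). STAT3, the mediator of interleukin 6 signals, was higher in RT112 (0.60, SE 0.17, adjusted p 0.012), while SCaBER gave 0.08 (SE 0.13, adjusted p 0.765). The chain IL10RB of the lambda receptor held 0 to 9 counts a library and IFNGR2 0 to 4.

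Of 6 other IRFs, 4 were tested in each line, with 2 called in RT112 and 1 in SCaBER, all higher (medians 0.53 and 0.31). IRF3, which is activated by sensors of viral nucleic acid, rose by 0.91 in RT112 (SE 0.23, adjusted p 0.00548), while SCaBER gave 0.51 (SE 0.20, adjusted p 0.0806). The 17 feedback regulators had 3 of 16 called in RT112, all higher, and 5 of 17 in SCaBER, 3 higher and 2 lower (medians 0.29 and 0.01), which is 18.8% and 29.4% beside 23.3% and 17.8% of all genes. USP18, which displaces JAK1 from IFNAR2, went from 7.73 and 12.0 CPM to 109 and 87.9 in SCaBER (3.32, SE 0.31, adjusted p 6.39e-10) while RT112 gave 1.16 (SE 0.58, adjusted p 0.162). SOCS3 was higher in SCaBER (1.10, SE 0.26, adjusted p 0.00201), as was PTPN6 (1.23, SE 0.40, adjusted p 0.0279), while SOCS2 (−1.72, SE 0.43, adjusted p 0.00376) and PIAS3 (−1.08, SE 0.31, adjusted p 0.0138) were lower. The phosphatases PTPN1 (0.84, SE 0.12, adjusted p 1.06e-05) and PTPN11 (0.72, SE 0.16, adjusted p 0.00135) and PIAS1 (0.85, SE 0.19, adjusted p 0.00137) were higher in RT112.

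Targets of ISGF3 moved with its subunits under siFOXA1. In RT112, 17 of 30 were called, 16 higher and SAMD9 lower, with a median log2 change of 1.81, and in SCaBER 29 of 30, all higher, with a median of 2.104, beside 23.3% and 17.8% of all genes called. ISG15, a ubiquitin-like antiviral protein, rose by 2.12 in RT112 and 2.57 in SCaBER (SE 0.42 and 0.16, adjusted p 5.73e-04 and 2.49e-13). IFIH1, a sensor of long double-stranded RNA, rose by 3.67 and 2.71 (SE 0.63 and 0.18, adjusted p 1.15e-04 and 5.1e-13), and OAS2 by 2.92 and 3.45 (SE 0.85 and 0.24, adjusted p 0.0138 and 1.5e-12). RSAD2, an inhibitor of viral replication, went from 1 and 0 counts to 85 and 109 in RT112 and by 3.54 in SCaBER (SE 0.25, adjusted p 1.19e-12).

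Of 18 targets of IRF1 and GAS, 2 of 11 tested were called in RT112 (median 0.81) and 11 of 13 in SCaBER (median 1.16), all higher. These are 18.2% and 84.6%, the former below the 23.3% of all genes called in RT112 and the latter above the 17.8% in SCaBER. In RT112 all 11 changes were positive, and 6 had an unadjusted edgeR p under 0.05. In SCaBER 12 of 13 were positive, and 11 had such a p. GBP1, an interferon-induced GTPase, gave 0.05 in RT112 (SE 0.21, adjusted p 0.908) and rose by 1.74 in SCaBER (SE 0.14, adjusted p 1.92e-11). WARS, a tRNA synthetase induced by interferon gamma, gave 0.16 (SE 0.24, adjusted p 0.693) and rose by 1.15 (SE 0.15, adjusted p 4.83e-07). The chemokines CXCL10 and CXCL11 rose in SCaBER by 4.17 and 2.75 (SE 0.52 and 0.21, adjusted p 2.72e-07 and 1.15e-11). In RT112 CXCL10 had 0 counts in both controls and 21 and 7 under siFOXA1, and CXCL11 had 0 and 1 and then 27 and 13. Of 11 interferon genes, IFNL1 was the only one to reach 10 counts in any library, in SCaBER. It had 7 and 0 counts under siControl and 44 and 39 under siFOXA1 (3.68, SE 1.12). Its choice and the low-count filter both turned on libraries where it was high, so no p is given. In RT112, 1 of 30 ISGF3 and 2 of 11 IRF1 and GAS targets were at 0 in both siControl libraries. With these set at the floor of 3 counts the medians stayed at 1.81 and 0.81. In RT112 IFNL1 was at 0 in all 12 libraries. Whether the lists differ in response between lines was tested gene by gene. Of the ISGF3 targets 4 of 30 were called, all with the higher change in SCaBER. Of the IRF1 and GAS targets 3 of 13 were called, 2 with the higher change in SCaBER and 1 with the lower, beside 2.58% of all genes.

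**Figure D4:**
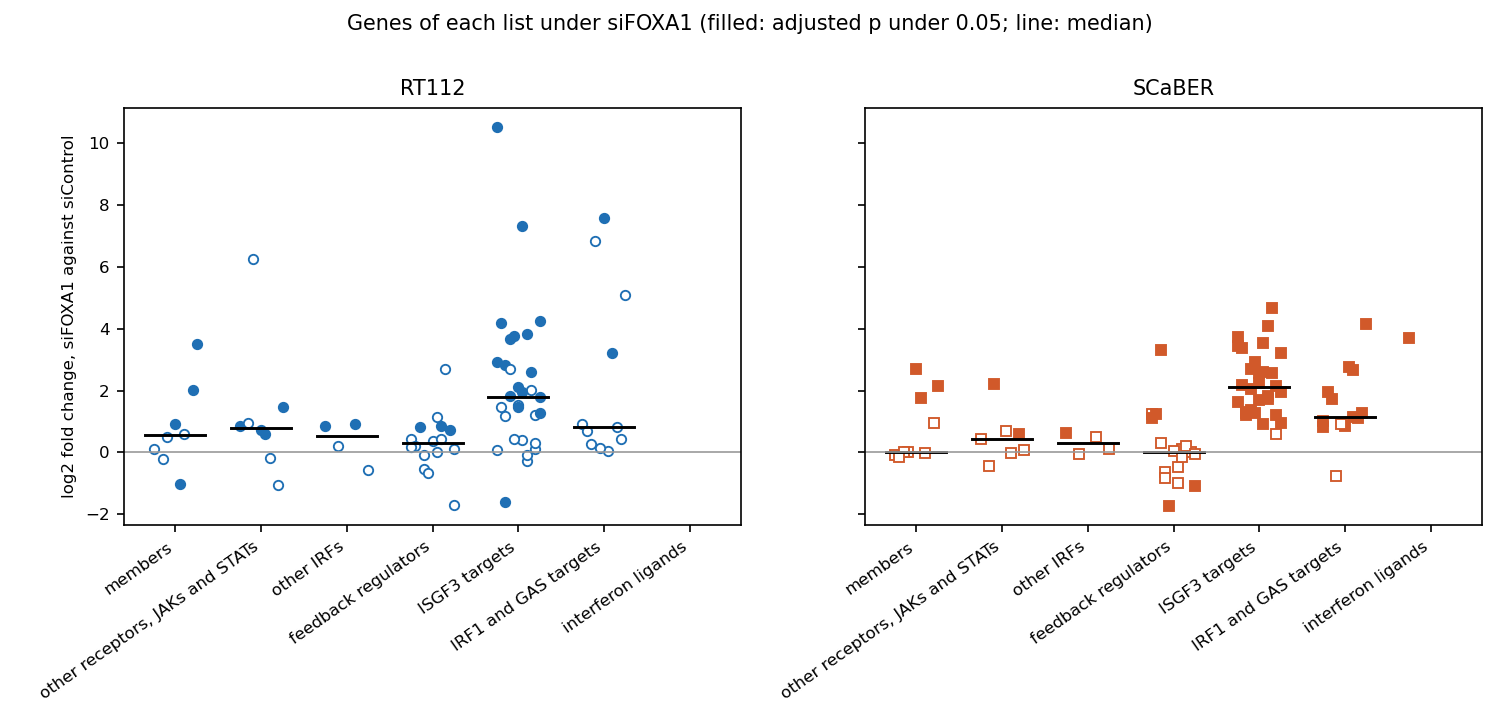
Log2 fold change under siFOXA1 against siControl (vertical axis) of each tested gene of the 9 members and 6 related lists, in RT112 (left) and SCaBER (right). Filled points have an adjusted p under 0.05, and black lines are list medians. ISGF3 targets have medians of 1.81 and 2.104, IRF1 and GAS targets of 0.81 and 1.16, and the members of 0.55 and 0.02.

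With siZBED2-1 alone, 5 of 30 ISGF3 targets (16.7%) were called in RT112, all higher (median 0.47), beside 8.8% of all genes. In SCaBER 3 of 30 (10%) were called, 1 higher and 2 lower (median −0.04), beside 4.65%. With siZBED2-2, 0 of 30 were called by edgeR in either line (medians −0.21 and 0.05), with 4 and 2 at an unadjusted p under 0.05, beside 0.166% and 0.625% of all genes called. In the SCaBER double knock-down, 25 of 30 ISGF3 targets and 6 of 13 IRF1 and GAS targets were lower than under siFOXA1 (medians −0.97 and −0.76), beside 3.84% of all genes called, as was USP18 (−0.99, SE 0.23, adjusted p 0.0074). In RT112 1 of 30 and 0 of 11 were called by edgeR in that comparison, the former higher, beside 1.96% of all genes, with 2 and 0 at an unadjusted p under 0.05. The interaction in SCaBER called 12 of 30 ISGF3 targets and 4 of 13 IRF1 and GAS targets, all lower, beside 2.29% of all genes. Their medians were −0.94 and −0.76. In RT112 it called 0 of 30 and 0 of 11, beside 0.611%, with 3 and 1 at an unadjusted p under 0.05.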

How the data were processed

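The 3′ RNA-seq libraries were read as raw counts per gene, which the authors deposited as whole numbers. Per the deposited pipeline settings, reads were checked with raw-qc 2.1.0, trimmed with TrimGalore 0.6.2 and aligned and counted with STAR 2.6.1a on hg38 and GENCODE 29, with strandedness detected automatically. The study's methods name hg19. The deposited TPM values divide by gene length, which does not suit 3′ reads, and served a single alternative with limma 3.58.1 on log2(TPM + 1).

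Counts were tested with edgeR 4.0.16 in R 4.3.3 (quasi-likelihood F-test, TMM, filterByExpr with minimum count 10 and total 15). All 12 libraries of a line entered one fit, and all 24 a fit for line differences (14823 genes). DESeq2 1.42.0, the study's tool, was an alternative. Common dispersions correspond to a coefficient of variation of 25.8% (RT112) and 21.6% (SCaBER). The SE is the log2 fold change over the root of its F. Depth (4425404 to 6119210 counts) and floors of 3 counts cover counting error only. Replicates differed beyond counting noise (chi-square per gene 6.07 to 22.1). Replicate numbers stand for experiment batches in the labels, which pairs samples. Deviations of equal numbers correlated at 0.0336 in RT112 and 0.0259 in SCaBER on average over 15 pairs of groups. These values over all genes tested do not show whether single genes were paired. The main fits left the replicate number out, and a fit with it as a block was an alternative. Separate cultures are not stated, so p-values measure the spread between these samples, which may be technical.

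The 9 genes and all lists were chosen with earlier results of these data known. Named beside them are up to 12 called regulators with the smallest p, up to 4 targets per list and interferon genes with 10 or more counts. A gene that this rule names is not reported here. The share of genes with 8 of 8 ZBED2 siRNA libraries on one side of their controls was added after seeing the data. The fits were run on counts simulated from their own dispersions with independent libraries, which cannot show how the p-values hold for these replicates.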

Additional observations from a re-analysis of the deposited data

Results flagged for a closer look

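The siFOXA1 response of JAK1 differed between the lines by a log2 difference of 1.02 (SE 0.23, edgeR adjusted p 0.0102). JAK1 was lower in 2 of 2 siFOXA1 libraries of RT112 (51.6 and 62.2 CPM beside 116 and 114) and on both sides of the controls in SCaBER (106 and 130 beside 128 and 108). The difference ran from 0.88 to 1.16 with single libraries left out, with adjusted p of 0.00966 to 0.0825.

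The change of STAT2 with a ZBED2 siRNA in SCaBER depended on siFOXA1, with an interaction of −1.96 (SE 0.26, edgeR adjusted p 2.2e-05). STAT2 was above both siControl libraries in 4 of 4 libraries with a ZBED2 siRNA alone. It was below both siFOXA1 libraries in 4 of 4 with siFOXA1 and a ZBED2 siRNA.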

How the results depend on the processing

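Of 24 called values of single genes, 0 changed direction in any alternative run, 11 were called in all of theirs, and over 265 alternatives of these values 40 were no longer called. JAK1, STAT2 and IRF9 under siFOXA1 in RT112, STAT2 under siFOXA1 and its interaction in SCaBER, and IRF1, IFNAR1 and IFNAR2 between the lines were among the 11. Depth limits IRF9, IRF7 and JAK2 most, whose libraries held as few as 7, 4 and 16 counts where detected.

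Counts of called genes moved by over 1.5 times in 28 of 194 alternatives. With limma on TPM the count with siZBED2-1 was 0 in RT112 and 0 in SCaBER, with siZBED2-2 in SCaBER 0, for the double knock-down against siControl in RT112 2, against siFOXA1 0 in either line, for siFOXA1 in SCaBER 1, and for the line difference 0. With only the groups compared in the fit, the count with siZBED2-2 in SCaBER and that of the line difference were 0, while IFNAR2 under siFOXA1 and IRF1 with siZBED2-1, both in RT112, became called. The replicate block moved 1 count, that of the RT112 interaction (1), and 2 calls of single genes, both given above, and changed no other call. With single libraries left out the counts ran from 1 to 2 with siZBED2-1 in RT112, 0 to 1 for the double knock-down against siFOXA1 in either line, 1 to 3 for siFOXA1 in SCaBER, 0 to 1 with siZBED2-2 in SCaBER, 1 to 2 for the double knock-down against siControl in SCaBER, 0 to 1 for the line difference, and 1 to 4 for genes without overlap in RT112. Fewer libraries were then compared, which alone can lose calls and can only add genes without overlap. The cause was otherwise not tested.

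Alternatives are given for every tested gene under siFOXA1, and elsewhere for STAT2 and for genes called by edgeR or in an alternative. Among these, the changes that turned direction were all uncalled and under siFOXA1. Other uncalled changes, as with the ZBED2 siRNAs, are not covered and may turn direction too. On TPM IFNAR1 in RT112 gave −0.20, and in SCaBER IRF1 −0.11 and JAK1 −0.13. With the replicate block JAK1 in SCaBER gave −0.00043. With single libraries left out JAK2 in RT112 ran from −1.03 to 0.31 and IFNAR1 from −0.0893 to 0.29, and in SCaBER IRF1 ran from −0.0343 to 0.0824, JAK1 from −0.15 to 0.15, TYK2 from −0.33 to 0.0375, IFNAR1 from −0.31 to 0.17 and IFNAR2 from −0.16 to 0.0904.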

Other observations

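Interferon targets already differed between the lines before any knock-down. Under siControl 27 of 30 ISGF3 targets were called between SCaBER and RT112 with edgeR, 25 higher in SCaBER and 2 lower (median log2 difference 3.095), as were 11 of 13 IRF1 and GAS targets, 10 of them higher in SCaBER (median 2.15), beside 33.6% of all genes. IFIH1 stood at 2.85 and 1.10 CPM in RT112 and at 35.6 and 43.4 in SCaBER, and CXCL11 at 0 and 0.183 CPM and at 33.2 and 34.3.

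The RT112 replicates differed in IRF9, in the double knock-down and in other groups. IRF9 stood at 26.3 and 6.26 CPM in replicates 1 and 2 of siFOXA1+siZBED2-1 and at 15.6 and 3.16 in those of siFOXA1+siZBED2-2. IRF9 was also higher in replicate 1 with siZBED2-1 (6.93 and 2.43) and siFOXA1 (25.3 and 20.0). It was level with siZBED2-2 (1.93 and 1.91) and lower in replicate 1 under siControl (1.54 and 2.38). STAT2 differed less in the double knock-down, at 60.2 and 40.8 and at 38.97 and 28.8 CPM. It was also higher in replicate 1 with siZBED2-1 (37.2 and 24.3), siZBED2-2 (20.4 and 17.2) and siFOXA1 (54.0 and 45.1).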
